A study of Mus musculus with 11 samples.

Results

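The endothelial cells of the embryonic mouse cortex were studied in the scRNA-seq libraries of the series, in which each barcode stands for a captured cell or cell fragment and each captured transcript is counted once by its unique molecular identifier (UMI) at its 3′ end. Dorsal cortex was taken at E14.5 from 1 WT embryo and 1 Syncrip cKO embryo carried by the same mother on the C57BL/6 background. In the cKO embryo, Syncrip, which encodes the RNA-binding protein hnRNP Q, carries loxP sites and was deleted by Emx1-Cre, a driver of the dorsal telencephalic neural lineage. Endothelial cells arise outside that lineage, so the cKO library holds vessels in a cortex whose neural cells carry the deletion. The WT embryo is labelled wild type without further alleles.

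A barcode was taken as endothelial when it had at least 500 genes, at most 10% mitochondrial UMIs, at least 5 UMIs summed over Cldn5, Flt1, Kdr and Pecam1, at most 4 UMIs over the pericyte genes Rgs5, Pdgfrb and Kcnj8, and at most 4 over the collagen genes Col1a1 and Col1a2. Of 17327 barcodes that passed the gene and mitochondrial limits, 89 (0.514%) met this rule. The WT library gave 49 of 8007 (0.612%, exact binomial 95% interval 0.453 to 0.808) and the cKO library 40 of 9320 (0.429%, interval 0.307 to 0.584). The intervals overlap and cover counting error only, as do all intervals given here. Among barcodes of at least 5000 UMIs the order turned, with 0.268% in WT and 0.347% in cKO. With 1 embryo per genotype no test between genotypes was possible, and dissociation, dissection, sex and genotype cannot be told apart. The WT embryo was male (0 Xist and 133 Y-linked UMIs in its endothelial barcodes) and the cKO embryo female (250 and 2). Because the members were chosen by their own transcripts, every contrast with other cells is a description.

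Brain endothelial cells line the capillaries and form the blood-brain barrier: tight junctions seal the gaps between neighbouring cells, carriers move glucose and amino acids across, and efflux pumps return foreign molecules to the blood. Vessels grow into the cortex from the meningeal plexus, guided by VEGF, and Wnt7a and Wnt7b released by neural cells switch on the barrier program through Frizzled and its coreceptors. Endothelial identity is held by transcription factors of the ETS and SOXF families.

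Promoters of 3 genes that mark these cells are shown because ETS factors bind the core AGGAAG near many endothelial start sites. The 250 bases before the RefSeq start are given 5′ to 3′ on the strand of the gene, with AGGAAG, or its reverse complement, in capitals. Flt1 (GRCm38.p6, minus strand, chr5:147726012-147726261) and Cldn5 (plus strand, chr16:18776597-18776846) belong to the rule, and Tie1 (minus strand, chr4:118489850-118490099) was among the genes with the largest ratio of endothelial over other cells.
Flt1: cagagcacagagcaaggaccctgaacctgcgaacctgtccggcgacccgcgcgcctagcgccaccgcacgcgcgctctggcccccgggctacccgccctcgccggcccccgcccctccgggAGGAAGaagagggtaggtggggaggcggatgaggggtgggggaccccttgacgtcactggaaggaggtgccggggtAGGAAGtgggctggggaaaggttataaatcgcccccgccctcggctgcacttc
Tie1: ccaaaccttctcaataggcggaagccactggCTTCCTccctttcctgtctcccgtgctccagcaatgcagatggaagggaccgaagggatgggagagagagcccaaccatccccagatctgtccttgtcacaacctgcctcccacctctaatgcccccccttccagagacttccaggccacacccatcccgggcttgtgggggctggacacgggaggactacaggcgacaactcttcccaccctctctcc
Cldn5: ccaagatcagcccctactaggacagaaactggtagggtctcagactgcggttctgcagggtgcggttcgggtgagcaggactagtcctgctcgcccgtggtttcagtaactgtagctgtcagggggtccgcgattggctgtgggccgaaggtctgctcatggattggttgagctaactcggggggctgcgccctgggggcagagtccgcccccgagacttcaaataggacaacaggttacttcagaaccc
The Flt1 window held 2 matches, the Tie1 window 1 and the Cldn5 window 0. RefSeq windows were matched for 24 of the 43 genes made up of the rule markers, the pan-endothelial list and the 25 leading genes below, and 16 of their 31 windows (51.6%) held the core on either strand, against 29.5% of all 32851 windows of this length. The SOX core AACAAT was in 6 of the 31 (19.4%) and in 9.42% of all windows. A match shows these letters and no binding.

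In all, 100172392 UMIs were counted in WT and 111313526 in cKO, and the endothelial barcodes had 577762 and 545283 of them. Depth per barcode was uneven. The median endothelial barcode had 3105 UMIs in WT (range 793 to 62456) and 8327.5 in cKO (645 to 86327), against 11901.5 and 11183.5 in the other cells. The 5 deepest barcodes carried 46.8% of the endothelial UMIs in WT and 46.0% in cKO, so summed levels rest on few barcodes.

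**Figure D1:**
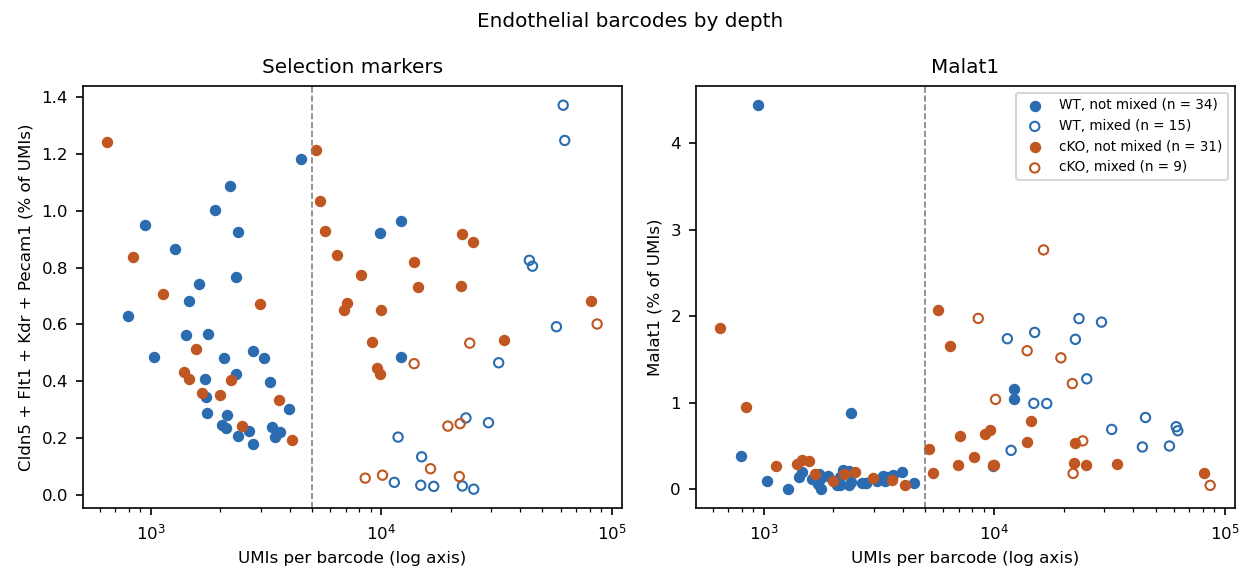
Each point is 1 of the 89 endothelial barcodes, with its UMIs on a log axis against the share of its UMIs on the 4 selection genes (left) or on Malat1 (right). The dashed line marks 5000 UMIs, below which 31 WT and 13 cKO barcodes lie, and open points are barcodes with many neuronal, progenitor or red cell UMIs, all of them above the line.

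The members fell into deep and shallow barcodes on either side of 5000 UMIs, a limit chosen after the values were seen. In WT, 18 deep barcodes held 87.7% of the endothelial UMIs and 31 shallow ones 12.3%. In cKO, 27 deep barcodes held 95.2% and 13 shallow ones 4.78%. The shallow barcodes kept the endothelial genes: the pan-endothelial list (16 genes that the rule did not use) made up 4073 CPM (counts per 1000000 UMIs of the summed barcodes) in shallow and 4536 in deep WT barcodes, and 4370 and 6225 in cKO. In sums or medians, what they had little of was RNA that stays in the nucleus or the mitochondria. Single shallow barcodes departed from this, with mitochondrial shares of up to 8.27% in WT and 8.98% in cKO. The highest share of Malat1 in a shallow barcode was 4.44% in WT and 1.86% in cKO. Malat1, a long noncoding RNA of the nucleus, was at 2001 CPM in shallow and 9524 in deep WT barcodes, and at 15760 in shallow barcodes of the other WT cells. In cKO the shallow and deep endothelial values were 2338 and 5670, and shallow other cells were at 18435. Xist, the RNA that coats the inactive X chromosome, gave 250 UMIs in the endothelial barcodes of the cKO embryo and none of them in the 13 shallow barcodes (0 of 26087 UMIs), against 1097 CPM in shallow other cells of that library. Mitochondrial genes took a median of 0.627% of the UMIs in shallow and 2.24% in deep WT barcodes, and 0.465% and 3.27% in cKO. All 4 selection genes were seen in 12 of 18 deep and 5 of 31 shallow WT barcodes, and in 22 of 27 and 2 of 13 in cKO. In 12 WT barcodes, 11 of them shallow, Cldn5 alone met the rule, which happened in no cKO barcode.

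Barcodes of either depth also held RNA of other cells, and in some deep ones it outweighed the endothelial genes. By limits set after the values were seen, 24 of the 89 barcodes (15 WT, 9 cKO) were mixed: 17 had at least 50 UMIs of the excitatory neuron list, 3 at least 100 of the neural progenitor list and 5 at least 1000 of the red blood cell list, with 1 barcode counted under more than 1 heading. A mixed WT barcode of 16865 UMIs had 5 selection and 1 pan-endothelial UMIs, but 73 of the neuron list. Another, of 14815 UMIs, had 5 and 3, but 492 of the progenitor list. A mixed cKO barcode of 10114 UMIs had 7 and 1, but 59 of the neuron list. Such members may be other cells with some endothelial RNA, which was not tested. Other mixed barcodes were rich in endothelial genes. The WT barcode with the most selection UMIs, of 61477 UMIs in all, had 843 selection and 488 pan-endothelial UMIs beside 72 of the neuron list. In WT, 83.1% of the selection and 79.7% of the pan-endothelial UMIs lay in mixed barcodes, and in cKO 27.6% and 32.7%. Leaving mixed barcodes out thus also leaves out much endothelial RNA, above all in WT. Mixed barcodes carried 81.8% of the endothelial UMIs in WT but 40.8% in cKO, which left 34 WT barcodes with 105147 and 31 cKO barcodes with 322804 UMIs. The red blood cell list stood at 51303 CPM in WT and 41357 in cKO endothelial sums, against 435 and 722 in the other cells. Its most abundant gene was the globin Hbb-bs, and 29545 of its 29641 UMIs in WT and 22493 of 22551 in cKO came from the 3 and 2 barcodes over the red cell limit. The excitatory neuron list, led by Tubb3, stood at 2515 CPM in WT and 1023 in cKO, against 5544 and 5121 in the other cells. The limits are UMI counts that a shallow barcode can hardly reach, so that mixed barcodes are deep follows from them. Per UMI, shallow barcodes held no less of this list, at 2875 CPM against 2464 in deep WT barcodes and 1917 against 978 in cKO. List ratios of cKO over WT are given below with and without the mixed barcodes. Without them the neuron list was lower in either library, but in WT the pericyte list was at 323 CPM (86.5 with all barcodes), the interneuron list at 95.1 (51.9) and the microglial list at 85.6 (48.5). Levels and contrasts with other cells are given for all barcodes.

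Pericyte, fibroblast and microglial RNA was low in the sums. The 12 pericyte markers, of which 3 are limited by the rule, came to 86.5 CPM in WT and 20.2 in cKO endothelial sums, against 6749 and 6260 in pericytes, and Cspg4, Atp13a5 and Anpep were at 0 in both. In the 31 shallow WT barcodes the pericyte list was at 479 CPM, against 31.6 in deep ones, 0 in shallow and 21.2 in deep cKO barcodes. The 10 fibroblast markers came to 60.6 and 51.4, nearly all of it Foxc1 (58 of 63 UMIs), a factor that endothelial cells also express, and Dcn, Lum and Pdgfra were at 0. Of the 12 microglial markers, at 48.5 and 55 CPM, C1qa, C1qc, P2ry12 and Ptprc were at 0. Scrublet, a program that scores barcodes against simulated doublets, called 264 WT barcodes (3.30%) and 408 cKO barcodes (4.38%), of which 0 and 2 were endothelial. The libraries shared 22 barcode sequences, none of them endothelial.

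Next to the threshold, few barcodes decided the values. Among barcodes that met the other limits, the 11 WT barcodes with exactly 5 selection UMIs held the pan-endothelial list at 641 CPM and the 15 with 4 held it at 408, while 3 barcodes with 6 held it at 4421. In cKO the values were 588 in 1 barcode with 5 selection UMIs, 3376 in 2 with 4 and 5995 in 4 with 6. Barcodes without a selection UMI were at 15.5 in WT and 15.9 in cKO.

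The selection genes themselves were led by Cldn5, the claudin that seals endothelial tight junctions, at 3893 CPM in WT and 3288 in cKO, against 19.5 and 10.6 in all other cells. A 3′ UMI count does not grow with transcript length, so levels of different genes are compared on this scale. Flt1, the VEGF receptor that binds and holds the ligand with little signaling, stood at 1315 and 1036. Kdr, the main signaling receptor for VEGF, stood at 665 and 818, and Pecam1, an adhesion molecule at cell contacts, at 473 and 541. These values describe how the cells were chosen. All other cells include the 16 WT and 14 cKO barcodes left out only by the pericyte and collagen limits. Those barcodes held 3752 and 2353 selection UMIs, at 4193 and 3571 CPM. The selection genes together stood at 42.0 and 24.8 CPM in all other cells. Levels given for all other cells are thus no background free of such barcodes.

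All 16 pan-endothelial genes outside the rule were also at least 4-fold higher in endothelial than in other cells in both libraries, against a background of 7.35% of the 7471 genes that averaged at least 20 CPM (549 genes), while 99 genes (1.33%) were at least 4-fold lower. The genes were measured in the same cells as the selection genes, so the count checks the label and is no test. Ramp2, a partner of the adrenomedullin receptor, was the highest at 933 CPM in WT and 1308 in cKO. Egfl7, a secreted vessel factor, followed at 557 and 794. Cdh5, the cadherin of endothelial adherens junctions, was at 433 and 502, and Cd34 at 327 and 556, above Cdh5 in cKO. Robo4 was the lowest at 69.2 and 111.9, against 0.867 and 0.489 in the other cells. In pericytes Cdh5 was at 0 in WT and 4.09 in cKO, while Esam, Ecscr and Emcn were at 92.0, 133 and 96.6 in WT pericytes.

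**Figure D2:**
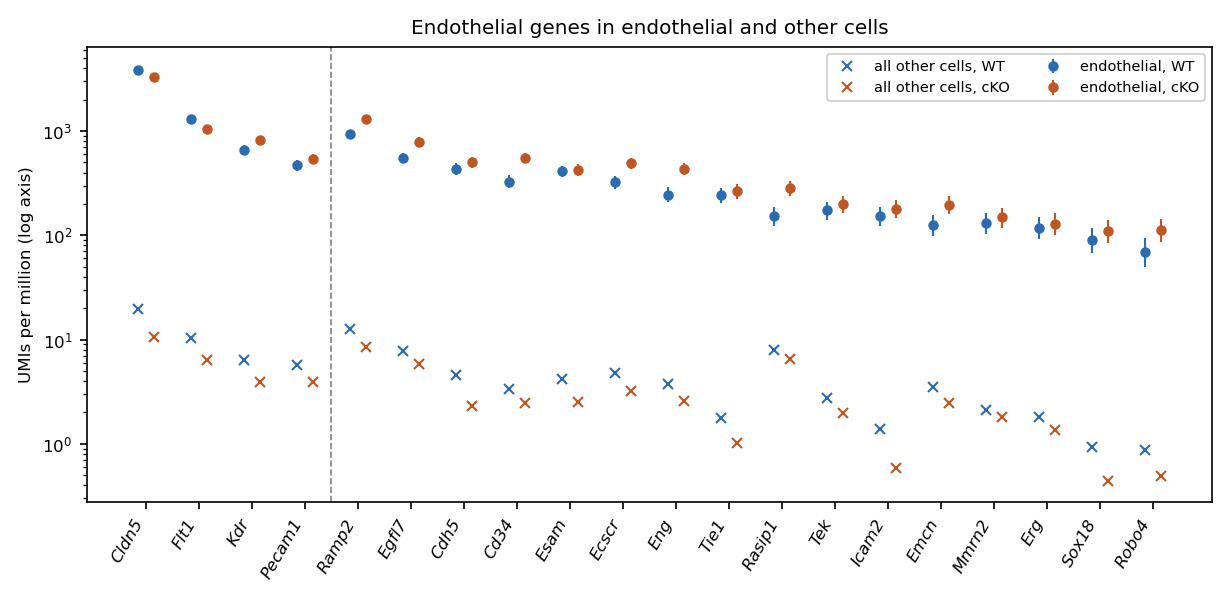
CPM on a log axis for the 4 selection genes (left of the dashed line) and the 16 pan-endothelial genes, in endothelial cells (circles with exact Poisson 95% intervals) and in all other cells (crosses), by library. Every circle lies far above its cross, and to the right of the line the cKO circle lies above the WT circle for all 16 genes.

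The 25 genes with the largest ratio outside the rule were led by Vwf, the von Willebrand clotting factor, at 256 CPM in WT and 149 in cKO endothelial cells and 1.34 and 0.680 in the others. Sox7 and Sox17, SOXF transcription factors, followed at lower levels, with Sox7 at 113 and 91.7 against 0.666 and 0.426, and Sox17 at 144 and 123 against 1.09 and 0.517. Abcb1a, the efflux pump P-glycoprotein, stood at 132 and 121 against 0.857 and 0.535. Gja4, the gap junction protein connexin 37, stood at 490 and 167 against 2.85 and 1.08, and was at 124 and 114 in pericytes as well. Also among them were Tie1, Ptprb (the phosphatase VE-PTP, which acts on the Tie2 receptor), Adgrf5, the atypical chemokine receptor Ackr2, the adhesion molecule Icam2 and Clec1b. Slc40a1, the iron exporter ferroportin, was at 248 and 244 CPM and also at 93.9 and 221 in microglia, and Dusp2 and Pik3r6 were likewise seen in microglia (37.5 and 34.9 CPM in WT). Vwa1 had the highest level of the 25 with 566 and 607, against 4.48 and 3.01. Further genes were Ctla2a, Tbx1, Gimap1, Rassf9, Zfp366, AU021092, She, Cavin2 and Tmem252. Outside the endothelial cells, Cavin2 reached 74.9 CPM in fibroblasts, Adgrf5 reached 43.7 in pericytes, and the genes named here without a value in another cell group were at or below 18.7 in every group.

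Of the 17 junction genes, 9 were at least 4-fold higher in endothelial cells in both libraries, among them the selection gene Cldn5, against 7.35% of all genes tested. Besides Cldn5, Cdh5 and Esam these included F11r, which encodes the junctional adhesion molecule JAM-A, at 128 CPM in WT and 127 in cKO, and Lsr, the angulin of tricellular contacts, at 123 and 200. The scaffold Tjp1 (ZO-1) was at 414 and 394 against 55.9 and 54.1, while Ctnnb1, which serves adherens junctions and Wnt signaling in every cell type, was at 429 and 425 against 287 and 283. Ocln, the transmembrane protein occludin, gave only 28 and 15 UMIs. Cldn1 had 0 UMIs in either library, which at this depth allows up to 5.19 CPM in WT and 5.50 in cKO, and Cldn3 and Cldn12 gave 2 and 4 UMIs in all.

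Carriers of the barrier were already abundant. Of 19 transporter genes, 13 passed 4-fold in both libraries, against 7.35% of all genes tested. Slc2a1, the glucose carrier GLUT1, was at 722 CPM in WT and 1100 in cKO, against 22.5 and 19.6 in other cells. Slc7a5 and Slc3a2, the light and heavy chains of the large neutral amino acid carrier LAT1, were at 576 and 719 and at 677 and 998. Mfsd2a, which carries lysophosphatidylcholine lipids and restrains transcytosis, was at 313 and 326 against 11.2 and 12.4. Slco1c1, the thyroid hormone carrier, was at 220 and 134, and Tfrc, the transferrin receptor, at 187 and 306. Slco1a4, a carrier of the mature barrier, gave 0 UMIs in both libraries, and Slc16a1, the monocarboxylate carrier MCT1, gave 7 in all. Among genes of transcytosis, Cav1, the coat protein of caveolae, was at 152 and 80.7 and Plvap, the diaphragm protein of fenestrated and immature vessels, at 38.1 and 99.0, against 2.12 and 1.55, and 1.45 and 1.05, in other cells. Of the 8 genes of this list, 7 averaged at least 20 CPM and these 7 passed 4-fold (7.35% of all genes tested).

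Ligands and receptors of the main vessel pathways were measured in 6 cell groups. Flt1 and Kdr were at or below 45.0 CPM in every other group, which the rule itself favours because it selects on both. Flt4, the receptor for VEGF-C, was at 48.5 in WT and 77.0 in cKO endothelial cells and at 0 in pericytes, fibroblasts and microglia. Nrp1, the VEGF and semaphorin coreceptor, was shared: 317 and 295 in endothelial cells, 423 and 333 in neurons. The ligand Vegfa was close to absent from endothelial cells, with 2 UMIs in each library (3.46 and 3.67 CPM), and was highest in fibroblasts at 60.5 and 63.2, with 17.1 and 16.8 in progenitors. Vegfb was at 88.6 and 87.7 in progenitors and 77.8 and 107 in microglia, and Pgf was highest in pericytes at 43.7 and 20.4. Vegfc, the ligand of Flt4, was itself found in endothelial cells at 48.5 and 31.2, with 35.8 and 56.2 in fibroblasts and 7.56 and 7.95 in all other cells, and 17 of its 28 WT UMIs were in 1 barcode.

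The angiopoietin receptor Tek (Tie2) stood at 173 and 198 CPM and Tie1 at 242 and 266. Angpt1, the ligand of Tek, was at 52.3 and 60.9 in fibroblasts and 29.9 and 32.7 in pericytes. Endothelial cells gave 0 Angpt1 UMIs in WT and 8 in cKO. Pdgfb, the growth factor by which endothelial cells recruit pericytes, was at 149 and 215 in endothelial cells and 4.60 and 8.18 in pericytes. Its receptor Pdgfrb showed the reverse, at 6.92 and 1.83 in endothelial cells and 435 and 319 in pericytes, although here the rule limits it on both sides. Dll4, the Notch ligand of tip and arterial cells, was at 77.9 and 88.0 with at most 4.09 elsewhere, and Jag2 at 86.5 and 84.4. Notch1 was shared, with 204 and 163 in endothelial cells, 216 and 119 in pericytes and 147 and 143 in progenitors. Notch3 and the Notch target Heyl belonged to pericytes (200 and 106, and 124 and 139), with 6 and 1 UMIs in all endothelial cells.

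**Figure D3:**
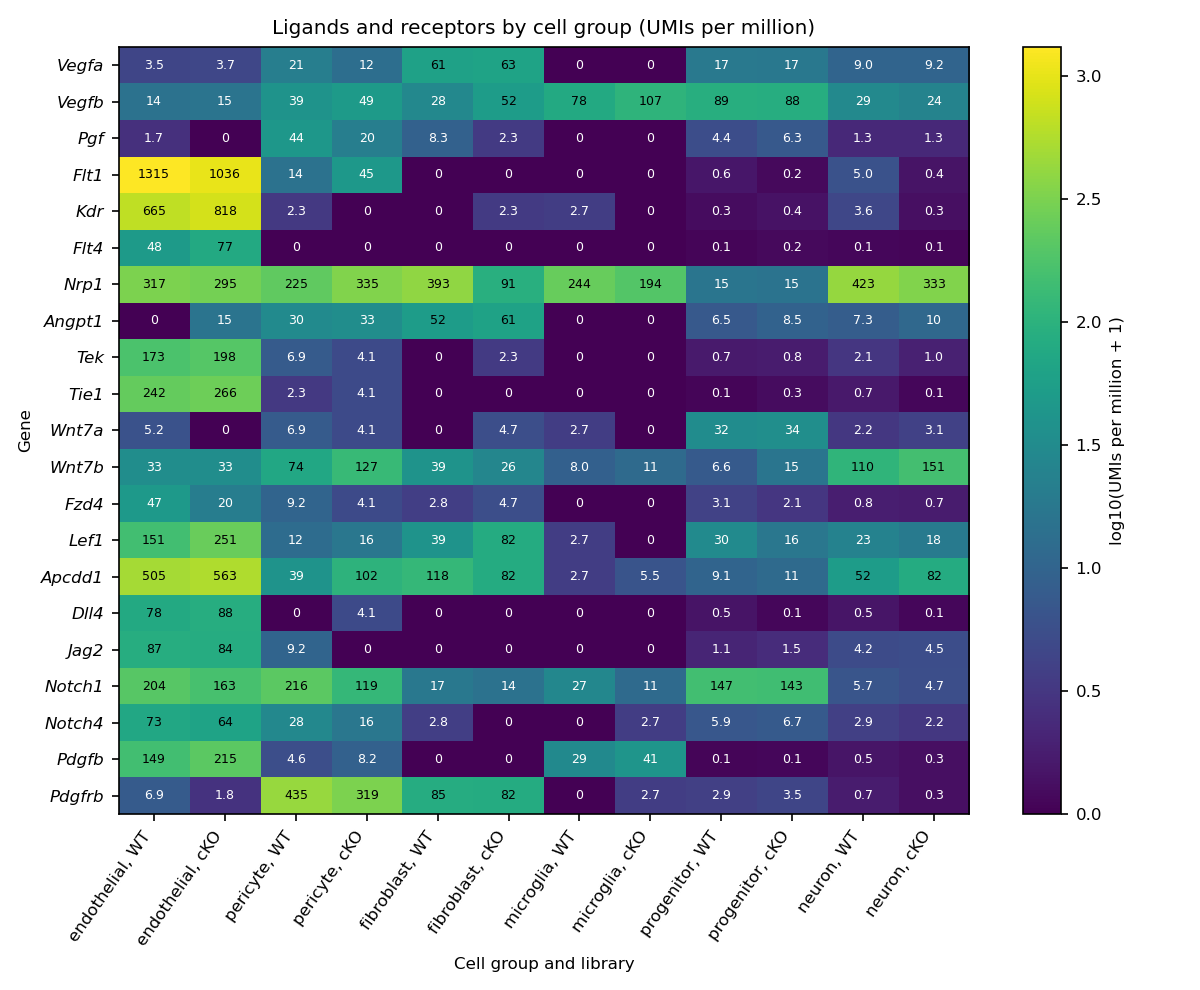
CPM of ligands and receptors in 6 cell groups of each library, printed in each cell and coloured by log10 of the value plus 1. The VEGF and Tie receptors, Dll4, Jag2 and Pdgfb are high in the left columns and Vegfa, Angpt1, Wnt7a, Wnt7b and Pdgfrb in other groups. The small groups have 16 to 35 barcodes per library, so a 0 there allows up to 12.3 CPM.

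Of the 6 Wnt ligands listed, Wnt7b was at 110 and 151 CPM in neurons and Wnt7a at 31.7 and 34.0 in progenitors. Endothelial cells held 32.9 and 33.0 CPM of Wnt7b, 3 Wnt7a UMIs in WT and 0 in cKO, and 15 and 5 UMIs of Wnt5a. Of the 16 genes for reception and response, 8 passed 4-fold, where 7.35% of all genes tested did. Fzd4, a Frizzled of brain vessels, was at 46.7 and 20.2 against 1.42 and 1.31 in other cells, and its partner Adgra2 (GPR124) at 45.0 and 49.5, a level also seen in fibroblasts (35.8 and 46.8). Reck, which acts with Adgra2, gave only 9 and 2 UMIs. Among targets, the feedback inhibitor Apcdd1 was at 505 and 563, the transcription factor Lef1 at 151 and 251, and Nkd1 at 123 and 180. Axin2, the target most widely used as a readout, was low at 19.0 and 27.5 and was higher in fibroblasts (71.5 and 133). Foxq1 (268 and 279) and Foxf2 (90.0 and 89.9), forkhead factors of brain vessels, were also found in pericytes at 113 and 98.1 and at 69.0 and 49.1.

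Of 24 endothelial transcription factors, 17 passed 4-fold in both libraries, against 7.35% of all genes tested. The ETS factors Erg (118 and 128 CPM), Fli1 (272 and 378) and Ets1 (334 and 433) were all present, although Ets1 was also at 235 and 131 in pericytes. Klf2, which rises with blood flow, had the most UMIs of the list at 531 and 427. Lmo2, shared with blood cells, was at 408 and 413, and Epas1, which encodes HIF-2α, at 350 and 218. Among 12 tip cell genes Pdgfb had the most UMIs, while Apln was at 79.6 and 66.0, Cxcr4 at 26.0 and 25.7, and Esm1 gave 2 and 7 UMIs. The 7 lymphatic genes came to 81.3 and 281 CPM (log2 ratio of cKO over WT 1.79, interval 1.31 to 2.29; 0.55, -0.37 to 1.59, without the mixed barcodes), of which 88 of 153 UMIs in cKO were Reln, 84 of them in 1 barcode. Flt4, given above, and Mmrn1, at 20.8 and 38.5 CPM against 0.424 and 0.390 in other cells, are in this list too, while Lyve1, Prox1 and Ccl21a gave 0, 1 and 1 UMIs over all 89 barcodes. Basement membrane genes were abundant, at 6873 CPM in WT and 8086 in cKO, led by Sparc (2079 and 2448) and the collagen IV chains Col4a1 (1116 and 1324) and Col4a2 (827 and 998). They were shared with pericytes, where the list stood at 5005 and 4751, and with fibroblasts, where it stood at 4535 and 6206.

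The comparison of cKO with WT is given with all barcodes and without the mixed ones, because mixing differed between the libraries. The unmixed barcodes still differed in depth (median 2276 UMIs in WT, 5703 in cKO), with 3 deep and 31 shallow barcodes in WT against 18 and 13 in cKO. Ratios without mixed barcodes thus set mostly shallow WT barcodes against mostly deep cKO ones. These barcodes also differed in the excitatory neuron list (2026 and 294 CPM) and in the pericyte list (323 and 24.8). The part of these differences in the values below was not tested. Among 3559 genes with at least 60 endothelial UMIs, 273 (7.67%) differed at least 2-fold between the summed libraries, of which 79 (2.22%) were higher and 194 (5.45%) lower in cKO. In all other cells, 18 of the same genes (0.506%) did so. The median log2 ratio of the 3559 genes was 0.03. Without mixed barcodes, 1237 genes had enough UMIs, of which 164 (13.3%) differed at least 2-fold, 136 higher and 28 lower, and the median log2 ratio was 0.18, so list ratios without mixed barcodes are to be read against that value and not against 0. Xist, at 0 in WT, has no ratio and is in neither count of differing genes. Of the genes past 2-fold, 14 higher and 3 lower were the same in both counts, and the balance between higher and lower turned round.

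The 8 genes with the lowest ratio came almost wholly from mixed barcodes in WT. Luzp2 had 94 UMIs in WT, 87 of them in 1 barcode, and 3 in cKO (log2 ratio -4.89, exact 95% interval -7.19 to -3.29). Rorb, a transcription factor of cortical neurons, had 84 UMIs in WT against 4 in cKO. Rgs6, Nebl, Tmem108, Fbln2 and Zfpm2 had between 68 and 118 UMIs in WT and between 7 and 12 in cKO. Of the WT UMIs of each of these genes, at least 95.7% lay in mixed barcodes, and for Luzp2, Rorb, Rgs6 and Nebl it was every UMI. Without mixed barcodes Fbln2 had 1 UMI in WT and 5 in cKO. Leaving out genes on the sex chromosomes, of mitochondria, ribosomes and globins and predicted genes removed 4 of the 194 and 3 of the 79.

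At the other end, Reln, a signaling protein of Cajal-Retzius cells, had 6 UMIs in WT and 88 in cKO, of which 84 were in 1 mixed barcode. Without mixed barcodes it had 3 and 1. In pericytes Reln was at 1403 CPM in WT and 756 in cKO. Tubb6, a tubulin, had 23 and 81 UMIs (log2 ratio 1.90, interval 1.22 to 2.64), was 2.19 and 1.40 CPM in other cells, and kept 5 and 68 UMIs without mixed barcodes (2.15, 0.85 to 3.82). It was also higher in cKO in pericytes (27.6 and 77.7 CPM) and fibroblasts (22.0 and 53.9), and stood at 26.8 and 21.9 in microglia. With no limit on pericyte and collagen UMIs its ratio was 0.0075 (-0.33 to 0.35). The other 6 were genes of the dividing cell: Birc5, Prc1, Cks2, Pclaf, Top2a and Mki67. Top2a, the topoisomerase that untangles replicated DNA, had 43 UMIs in WT and 151 in cKO (1.90, 1.40 to 2.42), and Birc5, the chromosomal passenger survivin, 15 and 76 (2.42, 1.61 to 3.33). Without mixed barcodes these ratios were at 1.12 (0.36 to 1.98) for Top2a, 1.01 (0.04 to 2.14) for Birc5, 0.83 for Cks2, 0.32 (-0.62 to 1.37) for Mki67 and 0.31 for Pclaf, while Prc1 was at 2.12. Birc5 was below 0 as the mean of single cells and when thinned to 3000 UMIs.

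The G2/M list came to 535 CPM in WT and 1656 in cKO endothelial cells (log2 ratio 1.63, interval 1.44 to 1.82), with 826 and 924 in the other cells. All 17 members with at least 20 UMIs lay above 0, and 8 of the 8 with at least 60 were past 2-fold, where 2.22% of all genes were. The S phase list came to 374 and 814 (1.12, 0.89 to 1.36), with 12 of 12 members above 0. These UMIs sat in few barcodes. At least 30 G2/M UMIs, a limit set after the values were seen, were found in 2 of 49 WT and 7 of 40 cKO barcodes, and the highest barcode held 289 of the 903 UMIs in cKO and 90 of 309 in WT. Of the 9 barcodes, 1 WT and 4 cKO were mixed. Without mixed barcodes the log2 ratio was 0.55 (0.29 to 0.83) for G2/M and 0.12 (-0.25 to 0.51) for S phase, and the mean over single barcodes, in which each counts equally, was -0.00 for G2/M. With no limit on pericyte and collagen UMIs the G2/M ratio was 0.13 (0.04 to 0.22).

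**Figure D4:**
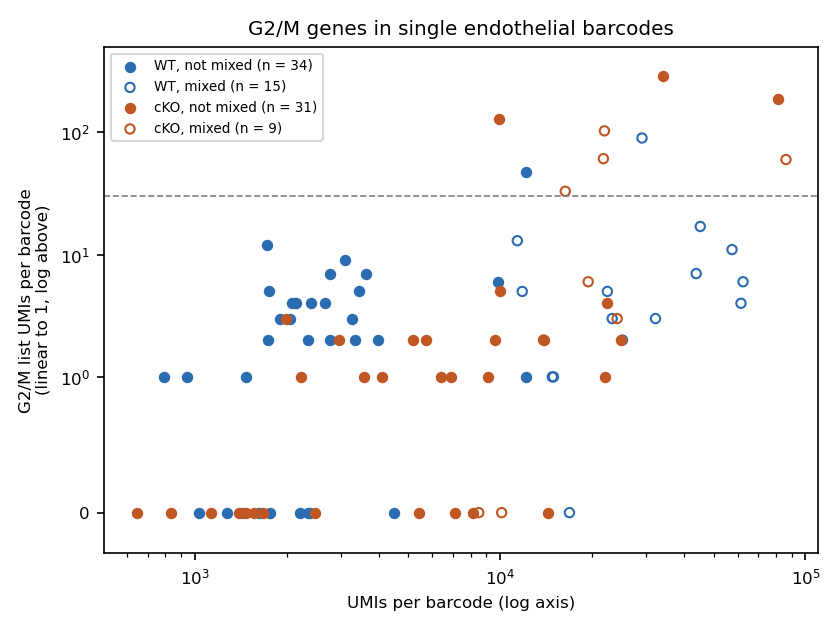
UMIs of the 18 G2/M genes in each of the 89 endothelial barcodes (linear up to 1, log above) against its total UMIs on a log axis. The dashed line marks 30 G2/M UMIs, above which lie 2 WT and 7 cKO barcodes, all with at least 9887 UMIs.

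The pan-endothelial list was higher in cKO under every alternative tried, by amounts that ranged from 0.10 on the log2 scale with no limit on pericyte and collagen UMIs, and 0.25 with at least 10 selection UMIs, to 0.81 with barcodes thinned to 3000 UMIs. It stood at 4479 CPM in WT and 6136 in cKO (log2 ratio 0.45, interval 0.38 to 0.53), with 16 of 16 members above 0. The median of all genes with at least 20 endothelial UMIs was 0.00, and the ratio of the list in other cells was -0.54. Those other cells include 16 WT and 14 cKO barcodes left out only by the pericyte and collagen limits. In these barcodes the list was at 4772 and 4075 CPM, and their part in the -0.54 was not tested. Without mixed barcodes the endothelial ratio was 0.48 (0.34 to 0.62), with 15 of 16 members above 0, where the median of all genes was 0.18. Of the 16 members, 0 were past 2-fold, against 7.67% of all genes. The largest differences were those of Rasip1, a regulator of lumen formation, at 152 and 282 CPM, and Eng, the TGF-β coreceptor endoglin, at 246 and 435. The selection genes were divided: Kdr was at 0.30 (0.10 to 0.50) and Pecam1 at 0.20 (-0.05 to 0.44), Cldn5 was at -0.24 (-0.33 to -0.15), and Flt1 was -0.34 with all and 1.16 (0.78 to 1.56) without mixed barcodes, a change of direction. The median of Flt1 was 0 UMIs in the shallow barcodes of either library, against 11.5 in deep WT and 12 in deep cKO barcodes. Together the selection genes were at -0.16 (-0.23 to -0.09) with all barcodes. Without mixed barcodes they were at 0.24 (0.11 to 0.37), with 3 of 4 above 0, and this interval covers the median log2 ratio of 0.18 of that set.

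Barrier transporters were at 5154 CPM in WT and 6492 in cKO (0.33, 0.26 to 0.40), with 10 members above and 6 below 0, and at 0.67 (0.54 to 0.82) without mixed barcodes. Slc38a5, a glutamine carrier that is also used as a venous marker, was past 2-fold, the 1 such gene of the 14 with at least 60 UMIs (2.22% of all genes were higher by this rule), with 106 UMIs in WT and 307 in cKO (1.62, 1.29 to 1.95). It was spread over 28 WT and 24 cKO barcodes and stood at 0.97 (0.46 to 1.51) without mixed barcodes. Slc2a1 was 0.61 (0.43 to 0.79), and 0.60 without mixed barcodes. With no limit on pericyte and collagen UMIs the list was at 0.024 (-0.02 to 0.07), Slc38a5 at 0.43 and Slc2a1 at 0.05, and with at least 10 selection UMIs the list was at 0.13. Slc6a6, the taurine carrier, had 276 and 147 UMIs (-0.83) with all barcodes and 17 and 106 (1.02) without the mixed ones.

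Arterial and venous genes gave unlike ratios with all barcodes. The venous list was at 713 and 1209 CPM (0.76, 0.58 to 0.94, other cells 0.32). The transporter Slc38a5, given above, made up 106 of its 412 UMIs in WT and 307 of its 659 in cKO. Aplnr, the apelin receptor, was at 84.8 and 218 CPM and Nr2f2, the factor that sets venous fate, at 34.6 and 105. Nr2f2 was also higher in all other cells of cKO (43.1 and 91.4 CPM, log2 ratio 1.08), and its endothelial ratio without mixed barcodes was 0.65 (-0.64 to 2.21). Vwf, in the same list, was lower in cKO (256 and 149). The arterial list was at 1579 and 1179 (-0.42, -0.57 to -0.27), mainly through Gja4, with 283 and 91 UMIs, of which 162 in WT came from 1 barcode, and through Efnb2, with 119 and 64, of which 115 in WT lay in mixed barcodes (ratio 0.47, -1.15 to 2.50, without them). Gja5, the arterial connexin 40, had 2 and 27 UMIs, of which 19 in cKO came from 1 barcode, and 0 and 3 without mixed barcodes. With no limit on pericyte and collagen UMIs the venous ratio was 0.041 (-0.07 to 0.15). Without mixed barcodes the venous ratio was 0.77 (0.43 to 1.12) and the arterial one 0.67 (0.31 to 1.04), so the arterial list turned its direction and the intervals of the 2 lists overlapped.

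Immediate early genes were lower in cKO with all barcodes, at 3003 and 1643 CPM (-0.87, -0.99 to -0.75), and 0 of 15 members with at least 20 UMIs lay above 0. Egr1 had 83 UMIs in WT and 12 in cKO, and Fos 101 and 31. Other cells were lower in cKO too, at -0.30. Of the 1735 WT UMIs, 634 were in 1 barcode and 90.4% in mixed barcodes, and without these the ratio was 0.08 (-0.18 to 0.34). Basement membrane genes were 0.23 (0.17 to 0.30) with all and 0.49 (0.37 to 0.62) without mixed barcodes, but -0.023 (-0.06 to 0.01) with no limit on pericyte and collagen UMIs and -0.0086 with at least 10 selection UMIs. VEGF receptors were at -0.03 (-0.14 to 0.08) with all and 0.999 (0.75 to 1.25) without mixed barcodes.

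**Figure D5:**
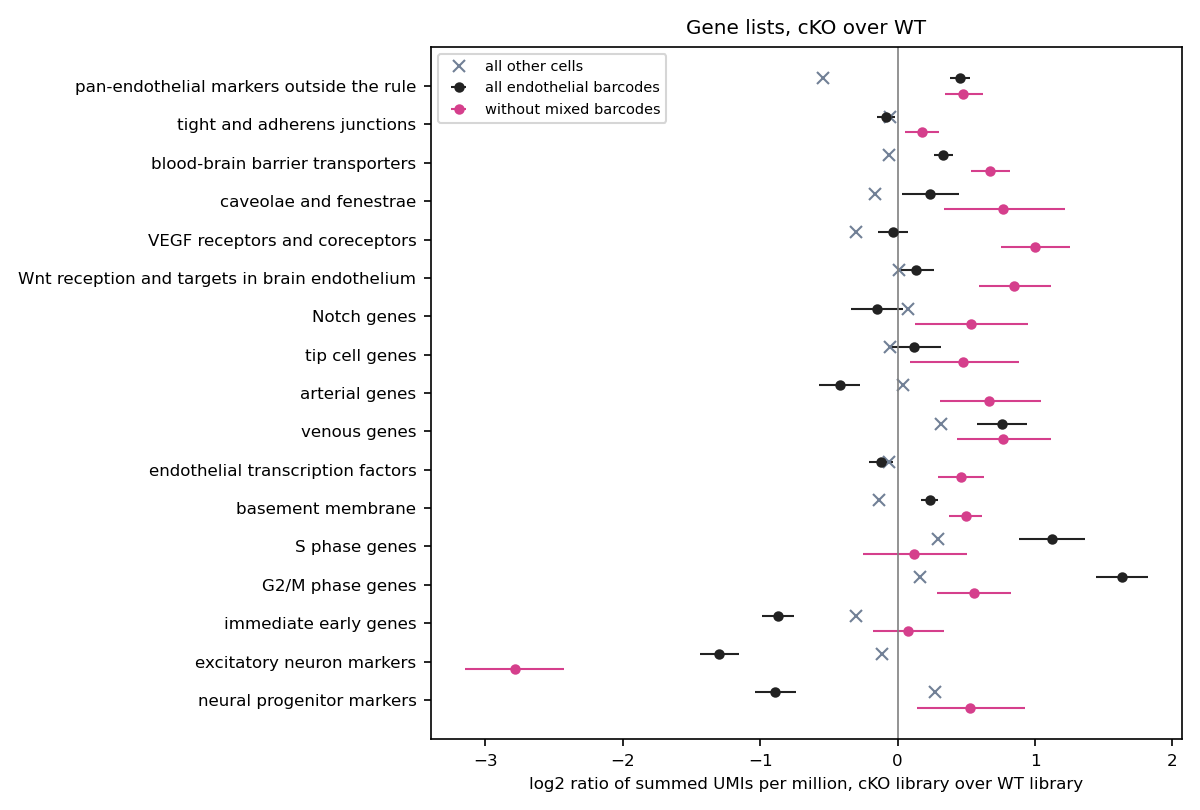
The log2 ratio of summed CPM, cKO over WT, for 17 gene lists with exact 95% intervals, from all endothelial barcodes (black) and without mixed barcodes (pink), with the ratio in all other cells as crosses. The pan-endothelial, barrier transporter, caveolae, Wnt reception, tip cell, venous, basement membrane, S phase and G2/M lists lie above 0 in both sets shown. The excitatory neuron list lies below 0 in both. Others, the arterial and progenitor lists among them, change side of 0, while the median log2 ratio of all genes without mixed barcodes was 0.18.

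Syncrip itself was detected in endothelial cells of either embryo, with 114 UMIs in WT and 112 in cKO, that is 197 and 205 CPM (log2 ratio 0.06, interval -0.33 to 0.45). The sign of this ratio held in 6 of 11 alternatives, with values from -0.76 when thinned to 3000 UMIs to 0.32 with at least 3 selection UMIs, and 0.14 (-0.64 to 0.99) without mixed barcodes. The level was below that of progenitors (319 and 312) and neurons (286 and 329). All other cells, most of them of the neural lineage in which the gene is deleted, were at 312 CPM in cKO against 287 in WT, so 3′ UMIs do not check the deletion, and the endothelial value says nothing about protein. Its paralog Hnrnpr stood at 133 and 163 CPM in endothelial cells (0.29, and 0.84 with an interval of -0.14 to 1.98 without mixed barcodes), and the list of 10 hnRNP and related genes at 3152 and 3481 (0.14, 0.05 to 0.24, and 0.23, 0.05 to 0.41, without mixed barcodes), below the 4598 and 4479 of other cells.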

How the data were processed

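The authors aligned droplet 3′ reads of 1 WT and 1 cKO library and counted UMIs per gene and barcode with Cell Ranger 7.0.0 (mm10, per the submitters' processing notes), and the deposited values are raw UMI counts, 1 matrix per library. The gene annotation used for counting is not given in the sources used here. A bulk RNA-seq table was not used, and LACE-seq data were not analysed here.

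The members, the 33 gene lists and the alternatives were chosen with earlier results of these data known. Barcodes were kept at 500 or more genes and at most 10% mitochondrial UMIs. The counts of each cell group were summed per library and divided by the summed UMIs (CPM, counts per 1000000). Levels have exact Poisson 95% intervals, log2 ratios exact conditional intervals and shares exact Clopper-Pearson intervals. A sum of 0 was given the limit of 3 counts. Endothelial cells were compared with all other kept barcodes (averages of at least 20 CPM over the 4 sums) and cKO with WT (at least 60 endothelial UMIs). No test was run, because each genotype was 1 library. Named were the 25 genes with the largest endothelial ratio in the lower of both libraries, the 8 highest and 8 lowest cKO to WT ratios, and members of the lists. Of the genes so chosen, 3 are not reported here. Genes of the sex chromosomes, mitochondria, ribosomes and globins and predicted genes were passed over in the ranked choices. For symbols held by more than 1 gene identifier, the first was used. Comparison groups were cut from marker UMIs in the same way and did not overlap. The limits of 5000 UMIs, of mixed barcodes and of 30 G2/M UMIs were chosen after seeing the data. Doublets were scored with Scrublet in scanpy 1.11.5 and kept in the main values. The calculation was tested on simulated data. Python 3.11.15, numpy 2.4.6, scipy 1.17.1 and matplotlib 3.10.9 were used.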

Additional observations from a re-analysis of the deposited data

How the results depend on the processing

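No paired analysis was possible because each genotype was 1 library and no test was run between them. Values below are log2 ratios of cKO over WT unless a share or count is named. With at least 3 selection UMIs, the WT share was 0.899%, pan-endothelial genes 0.57, barrier transporters 0.43, G2/M 1.35, and junctions (0.037) and interneuron markers (-0.32) changed sign. With at least 10, the shares were 0.350% in WT and 0.290% in cKO, pan-endothelial 0.25, transporters 0.13 and arterial -0.65, and caveolae (-0.0035), Wnt reception (-0.071), basement membrane (-0.0086) and interneuron markers (-1.16) changed sign. Without Scrublet doublets, pan-endothelial was 0.53 and transporters 0.41.

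With no limit on pericyte and collagen UMIs, the WT share was 0.812%, 23 genes were 2-fold higher, pan-endothelial was 0.10, transporters 0.024, venous 0.041 and G2/M 0.13, and caveolae (-0.053), Wnt reception (-0.10), basement membrane (-0.023) and red cell markers (0.34) changed sign. As the mean of single cells, 378 genes were 2-fold higher, pan-endothelial was 0.54 and transporters 0.71, and the selection genes (0.16), junctions (0.083), Tie genes (0.995), arterial genes (0.91), transcription factors (0.28), G2/M (-0.0021), hnRNP genes (-0.050), red cell markers (0.45), Birc5 (-0.037), Cks2 (-0.44), Flt1 (0.97) and Nebl (0.36) changed sign. Thinned to 3000 UMIs, which leaves out shallower barcodes, the share was 0.350% in WT and 0.352% in cKO. In this setting 18 genes were higher and 23 lower, pan-endothelial was 0.81, transporters 0.72 and G2/M 0.53, and the selection genes (0.34), junctions (0.38), Tie genes (0.42), arterial genes (0.42), transcription factors (0.020), hnRNP genes (-0.14), Birc5 (-0.21), Cldn5 (0.085) and Flt1 (0.73) changed sign.

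With at least 5000 UMIs per barcode, the share was 0.268% in WT and 0.347% in cKO, the reverse of the main order, and G2/M was 1.98. Without mixed barcodes, the WT share was 0.425%, 136 genes were higher and 28 lower, transporters were 0.67 and G2/M 0.55, and the selection genes (0.24), junctions (0.18), Tie genes (0.30), arterial genes (0.67), transcription factors (0.46), immediate early genes (0.078), progenitor markers (0.53), interneuron markers (-0.48), Fbln2 (0.70), Flt1 (1.16), Gja4 (0.52) and Reln (-3.20) changed sign. These signs were taken against 0, while the median log2 ratio of all genes in this setting was 0.18. Of the intervals of these ratios, only those of arterial genes (0.31 to 1.04), transcription factors (0.29 to 0.63) and Flt1 (0.78 to 1.56) did not cover that median. The filter on low values moved the counts too: 895 genes were 4-fold higher in endothelial cells at 5 CPM and 1221 with no filter, and 2-fold differences numbered 208 higher and 409 lower at 30 UMIs and 23 higher and 96 lower at 120. The number of genes tested also changes with the setting (3559 in the main values, 1237 without mixed barcodes). Counts of genes in this section are therefore not shares and do not compare directly with the main counts. Sign changes are given for ratios of at least 1 in size or whose interval lay off 0, so the Notch genes (-0.15 to 0.53 without mixed barcodes) and VEGF receptors (-0.03 to 0.999) are not among them. Of 33 lists, 11 kept their sign under every alternative, as did 15 of 26 genes under those that gave them a value, which was not all of them for Luzp2, Rgs6, Rorb and Plvap. The cause of each change was not tested beyond what each alternative leaves out.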

Other observations

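Barcodes that met the selection UMIs but passed the pericyte or collagen limits numbered 16 in WT and 14 in cKO, and the limit on pericyte genes removed all of them. They held the pan-endothelial list at 4772 CPM in WT and 4075 in cKO and the 3 limited pericyte genes at 2070 and 2166, with medians of 36602.5 and 48719.5 UMIs per barcode, and Scrublet called 0 of them. Their values are not part of the endothelial cells above. They are part of all other cells, so levels of endothelial genes given for other cells include them.

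Genes of further groups were measured in the endothelial cells. In the TGF-β and BMP list, 6 of 15 genes were at least 4-fold higher than in other cells in both libraries, against 7.35% of all genes tested. The list was at 2006 CPM in WT and 2052 in cKO (log2 ratio 0.03, interval -0.09 to 0.15). Without mixed barcodes it was at 0.48 (0.24 to 0.73), with 9 of 11 members above 0, where the median log2 ratio of all genes was 0.18. Eng, the coreceptor endoglin, had the most UMIs. Smad7, an inhibitor of this pathway, had 104 UMIs in WT and 23 in cKO, but 97 of the WT UMIs lay in mixed barcodes, and without these it had 7 and 15. Of 12 antigen presentation and Ly6 genes, 5 passed 4-fold, among them Ctla2a, at 299 and 359 CPM, while Ly6a, a marker of adult brain endothelium, gave 3 and 2 UMIs and Ly6c1 27 and 11. The hypoxia and glycolysis list stood at 3166 and 4143 (log2 ratio 0.39, interval 0.30 to 0.48; other cells 0.12; without mixed barcodes 0.28) and was led by Gapdh.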
